A study of Mus musculus with 54 samples.

Results

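Carbonic anhydrase genes were examined in SGLT2-positive early proximal tubules of mouse kidney, isolated by laser capture microdissection. The members were the 9 genes of the family named Car2, Car3, Car4, Car5b, Car8, Car12, Car13, Car14 and Car15, taken by gene name from a table of 55487 genes, and each name matched 1 gene. Mice were 14-week-old DBA males, and each sample pooled 70 to 80 tubules. RNA was measured as TPM, an estimate of transcript abundance that divides by transcript length and scales every library to the same sum.

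The 9 groups combined the Ins2 genotype, the Sglt1 genotype and the treatment, which lasted 2 weeks. Akita mice (Ins2 Akita/+), in which a misfolded insulin causes insulin-deficient diabetes, were set against non-diabetic mice (Ins2+/+). Sglt1-/- mice (KO), which lack the second glucose transporter of the tubule, were set against Sglt1+/+ mice (WT). Dapagliflozin, an SGLT2 inhibitor given in the diet at 10 mg/kg, and semaglutide, a GLP-1 receptor agonist injected at 3 nmol/kg body weight per day, were each set against vehicle. The KO groups were Akita with dapagliflozin (n = 6), Akita with vehicle (n = 6), non-diabetic with dapagliflozin (n = 6) and non-diabetic with vehicle (n = 5). The WT groups were Akita with semaglutide (n = 5), Akita with dapagliflozin (n = 5), Akita with vehicle (n = 6), non-diabetic with dapagliflozin (n = 4) and non-diabetic with vehicle (n = 5). The table covered 48 of the 54 labelled samples, and the other 6 were not analysed here. Since no label says which animal gave which sample, p-values measure only the spread between these samples, and they are too small if any animal gave more than 1. The labels limit neither allele to the kidney.

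Slc5a1, the gene that encodes Sglt1, lay between 0 and 0.123 TPM in the 23 KO libraries and between 0.814 and 4.29 TPM in the 25 WT libraries, and the genotypes did not overlap. The SGLT2 gene Slc5a2 lay between 82.5 and 275 TPM. All 12 early proximal tubule markers on the list used passed the filter, with a sum of 876 to 2145 TPM. Markers of other segments were also measured, with sums of 10.004 to 309.9 TPM for the distal convoluted and connecting tubule, 20.3 to 160 TPM for the thick ascending limb and 3.85 to 28.8 TPM for intercalated cells. The 12 late proximal tubule markers summed to 1310 to 4552 TPM. Nuclear protein-coding genes, with Lars2 left out, made up only 5.98% to 14.1% of the TPM of a library. The lowest shares were in Akita WT vehicle samples 5 (5.98%) and 2 (6.66%) and Akita KO vehicle samples 6 (6.03%) and 5 (6.26%). TPM levels and marker sums depend on this share. In such bulk samples fewer cells of a type and less RNA per cell cannot be told apart.

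Carbonic anhydrases speed the exchange of carbon dioxide and water with bicarbonate and protons. In the proximal tubule an enzyme on the luminal membrane turns filtered bicarbonate and secreted protons into carbon dioxide and water, and a cytosolic enzyme turns these back into bicarbonate and protons inside the cell. Protons return to the lumen through the exchanger NHE3 (Slc9a3) and bicarbonate leaves across the basolateral membrane through the cotransporter NBCe1 (Slc4a4). Car2 is the main cytosolic enzyme of this tubule. Car4 is anchored to the membrane by a lipid, and Car12 and Car14 cross it once with the catalytic part outside the cell. Car15 is another lipid-anchored enzyme, active in mice and lost as a working gene in humans. Car5b is mitochondrial, Car13 is cytosolic, and Car8 is a related protein without the catalytic activity. Car3 is a cytosolic form with low catalytic activity, best known from muscle, fat and liver, where it is one of the more abundant proteins.

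The family in these tubules was dominated by 4 genes. Median levels over the 48 libraries were 34.9 TPM for Car12 (15.3 to 66.4), 34.6 TPM for Car2 (19.2 to 77.2), 22.5 TPM for Car14 (12.9 to 49.96) and 12.9 TPM for Car4 (3.49 to 31.8). Car3 followed at 3.05 TPM (0 to 18.2), Car5b at 1.88 TPM (0.719 to 3.96) and Car15 at 1.85 TPM (0.157 to 6.11). Car8 stayed at or below 0.491 TPM and Car13 at or below 0.293 TPM in every library. These values are per length, so levels of different genes can be set side by side. Car12 and Car2 did not differ in a constant direction, with Car12 the higher in 27 of 48 libraries. Car2 exceeded Car14 in 44 of 48, Car14 exceeded Car4 in 43 and Car4 exceeded Car3 in 46. Car3 exceeded Car5b in 33 of 48, and Car5b exceeded Car15 in 27. The order of Car3 and Car5b differed by group. Car3 averaged 0.371 TPM and Car5b 1.57 TPM in Akita WT vehicle, but 8.65 and 2.23 TPM in non-diabetic KO vehicle.

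The 9 genes summed to 119.7 ± 34.1 TPM (SD, n = 48), with a range of 54.99 to 200.4. The 4 membrane enzymes Car4, Car12, Car14 and Car15 held 64.2 ± 4.86% of that sum, and the 3 cytosolic ones Car2, Car3 and Car13 held 33.98 ± 4.72%. The membrane share ranged from 49.5% to 71.1%. Mitochondrial Car5b held 1.70 ± 0.407%.

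Of the 9 genes, 7 passed the filter (1 TPM or more in 5 or more libraries) and were tested. Car8 and Car13 reached a TPM of 1 in no library and did not pass. Tests were made on log2(TPM + 1) with limma across all 12742 genes that passed, with Benjamini-Hochberg adjustment over all of them. Called means an adjusted p under 0.05. On that scale the changes of low genes are understated. Each log2 change stands with the SE of the model, and each mean TPM with the SD between samples.

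Car3 and Car2 lie beside each other on chromosome 3. In GRCm38, Car13 (14641727 to 14663002), Car1 (14766216 to 14808368), Car3 (14863512 to 14872523) and Car2 (14886273 to 14900770) follow in that order, with Car1 on the minus strand and the others on the plus strand. Car3 and Car2 also have coding sequences of the same length, 780 bases, with 495 identical bases when laid side by side without gaps. The longest run they share is 14 bases. The stretch from coding base 280 to 369 was picked as the 90-base window with the most matches, 76 against 14 differing bases. It is thus the most alike part and not typical of the whole coding sequence. It is shown because the 2 neighbours differed in how they varied across the groups (sense strand, 5′ to 3′, GRCm38, differing bases in capitals).
Car3: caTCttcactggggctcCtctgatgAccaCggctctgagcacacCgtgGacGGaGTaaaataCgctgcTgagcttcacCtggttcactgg
Car2: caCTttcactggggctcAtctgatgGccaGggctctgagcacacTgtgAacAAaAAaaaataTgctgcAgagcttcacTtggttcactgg
No pair of the 9 genes shared a run of 31 bases in their annotated transcripts.

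Car3 was the most variable of the 7 tested members, with a coefficient of variation of 90.7% over the 48 libraries. The others had 31.4% to 38.8%, except Car15 with 66.8%. In KO tubules Car3 lay at 0.451 to 9.50 TPM in Akita with dapagliflozin (median 2.65), 0.243 to 3.997 TPM in Akita with vehicle (median 1.22) and 4.58 to 8.98 TPM in non-diabetic with dapagliflozin (median 6.51). The 5 non-diabetic KO vehicle samples had 3.59, 5.07, 7.51, 8.90 and 18.2 TPM. Akita vehicle values of KO tubules overlapped those of non-diabetic vehicle in 1 sample, at 3.997 TPM. In WT tubules the values were 0.555, 1.52, 1.91, 3.15 and 9.29 TPM in Akita with semaglutide and 1.57, 2.69, 2.95, 4.61 and 10.9 TPM in Akita with dapagliflozin. The 6 Akita WT vehicle samples lay between 0 and 0.858 TPM, with a median of 0.315 TPM and 1 sample listed at 0. Non-diabetic WT samples had 1.87, 1.88, 4.73 and 11.7 TPM with dapagliflozin and 1.68, 5.69, 6.15, 8.01 and 13.9 TPM with vehicle. All 6 Akita WT vehicle samples were therefore below every sample of non-diabetic WT vehicle and of Akita WT dapagliflozin.

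By median the groups ran upward from Akita WT vehicle over Akita KO vehicle, Akita WT semaglutide, Akita KO dapagliflozin, Akita WT dapagliflozin, non-diabetic WT dapagliflozin, non-diabetic WT vehicle and non-diabetic KO dapagliflozin to non-diabetic KO vehicle. The ranges of neighbours in that order overlapped in each case.

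**Figure D1:**
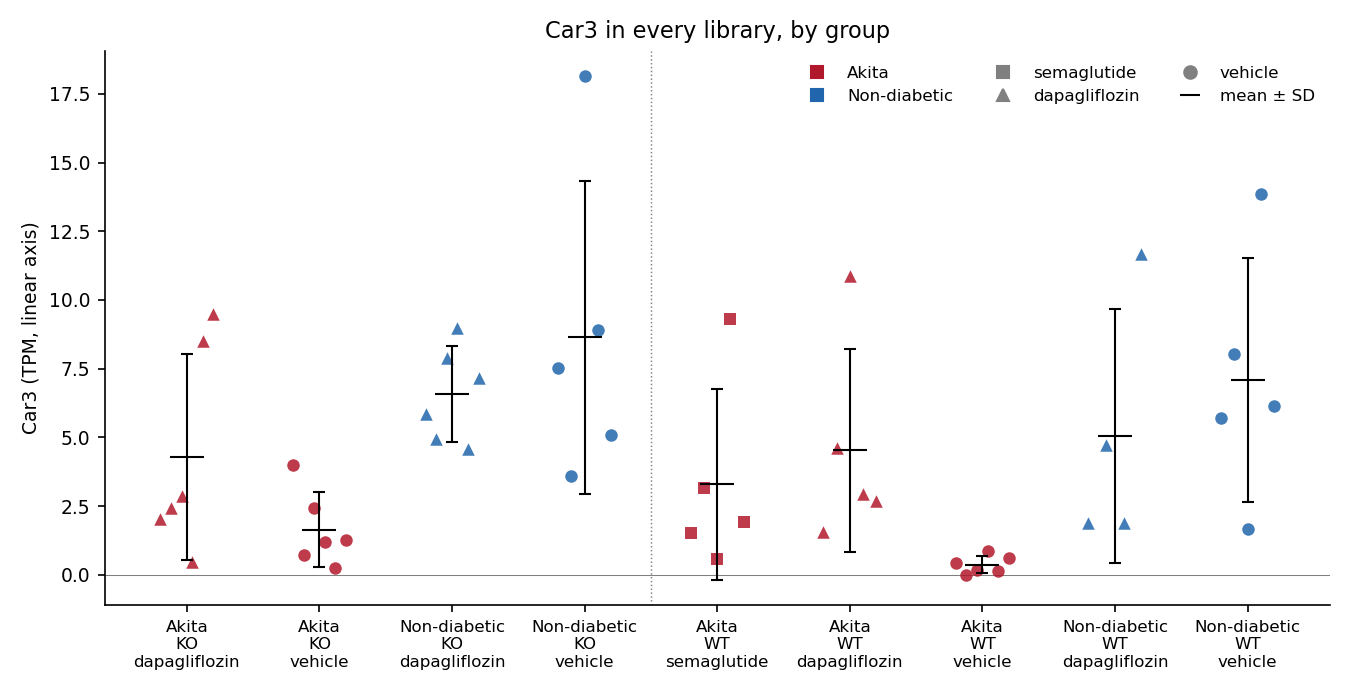
Car3 in TPM (linear axis) in each of the 48 libraries by group, Akita in red and non-diabetic in blue, with squares for semaglutide, triangles for dapagliflozin, circles for vehicle and black lines for the mean ± SD of the group. The 6 Akita WT vehicle samples lie between 0 and 0.858 TPM, below all samples of Akita WT dapagliflozin and of non-diabetic WT vehicle.

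The comparison of diabetic with non-diabetic vehicle-treated mice asked how diabetes changed these tubules. Car3 was lower in Akita tubules of both Sglt1 genotypes. Its mean was 0.371 ± 0.324 TPM in Akita WT (SD, n = 6) and 7.08 ± 4.44 TPM in non-diabetic WT (n = 5). In KO tubules the mean was 1.64 ± 1.37 TPM in Akita (n = 6) and 8.65 ± 5.70 TPM in non-diabetic mice (n = 5). In WT tubules it fell by 2.39 ± 0.47 on the log2 scale (limma, adjusted p = 0.0316, 6 of 6 Akita samples below the non-diabetic median). It was the only 1 of the 7 tested members that was called there, where 0.0235% of all genes were called. These were 3 genes, 2 of them higher, against 8 to 12 called with 5 to 7 higher under the other 3 scalings (median of ratios, nuclear protein-coding sum and quantile). Groups that did not overlap, with Akita lower, were found for 0.651% of all genes. In KO tubules the log2 change was −1.84 ± 0.47 (adjusted p = 0.183, 6 of 6 below), where limma called 0 genes (0%) and 1836 genes had an unadjusted p under 0.05.

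Averaged over both genotypes, Car3 fell by 2.12 ± 0.33 on the log2 scale (adjusted p = 0.000854) and had the lowest p of all 12742 genes. Of all genes, 0.557% were called in this average, with 3 higher and 68 lower, against 12 or 13 higher of 22 to 30 called with 3 other scalings of the libraries. The median of all genes was itself −0.20, and relative to it Car3 was at −1.92. The difference between the diabetes effects of KO and WT tubules was 0.55 ± 0.66 (95% interval −0.79 to 1.89, adjusted p = 1), so an effect that depends on Sglt1 was not detectable, and 0 genes were called (406 at an unadjusted p under 0.05).

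The call in WT tubules alone was lost with the LCM number of the sample title as a covariate (adjusted p = 0.136) and with no filter on low values (0.0787). It also rested on single libraries. It was lost without Akita WT vehicle sample 2 (adjusted p = 0.135), 3 (0.0517), 5 (0.0838) or 6 (0.0859). It was also lost without non-diabetic WT vehicle sample 1 (adjusted p = 0.0939), 3 (0.0753), 5 (0.182) or 6 (0.0607). The call of the average was kept without any single one of its 22 libraries, with adjusted p up to 0.00339. The 4 libraries with fewer than 9000 genes at a TPM of 1 or more were Akita WT vehicle samples 2 and 5 and Akita KO vehicle samples 5 and 6. Without these 4, Car3 averaged over genotypes was at −1.91 (adjusted p = 0.0338), and in WT alone at −2.23 (adjusted p = 0.394).

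The lower Car3 of Akita vehicle tubules went together with lower marker genes of the late proximal tubule. All 12 of those markers passed the filter, none was at 0 throughout, and all 12 had a lower mean in Akita than in non-diabetic vehicle tubules in WT and in KO. Of all genes tested, 74.2% in WT and 81.5% in KO had a lower log2 value, so most genes went the same way. In WT the late proximal marker sum was 1310 to 2582 TPM in Akita with vehicle (median 1866). It was 2777 to 4427 TPM in non-diabetic with vehicle (median 3447), with no overlap. In KO it was 1561 to 4041 TPM in Akita (median 2096) and 2351 to 4361 TPM in non-diabetic mice (median 3421). Much of this sum was 1 gene, Kap. In WT vehicle tubules Kap averaged 973 TPM in Akita and 1852 TPM in non-diabetic mice, and in KO 1179 and 1738 TPM. Slc22a7, a low marker of the list, averaged 0.867 and 3.31 TPM in WT. Early proximal markers summed to 974 to 1591 TPM in Akita WT vehicle (median 1322) and 1031 to 2041 TPM in non-diabetic WT vehicle (median 1295). In KO they summed to 876 to 1861 TPM in Akita vehicle (median 1200) and 1161 to 1957 TPM in non-diabetic vehicle (median 1431). A further 3 segment lists had lower medians in Akita vehicle tubules, with overlapping samples in both genotypes. In WT the thick ascending limb sum was 22.0 to 124 TPM in Akita (5 of 7 markers passed the filter, median 38.4) and 46.02 to 153 TPM in non-diabetic mice (median 87.9). The intercalated cell sum was 7.22 to 24.7 TPM in Akita WT (9 of 11 passed, median 8.34) and 7.53 to 27.6 TPM in non-diabetic WT (median 17.3). The distal convoluted and connecting tubule sum was 48.9 to 206 TPM in Akita WT (6 of 7 passed, median 80.6) and 33.8 to 181 TPM in non-diabetic WT (median 119). In KO the medians of these lists were 47.8, 10.9 and 64.6 TPM in Akita vehicle, and 55.7, 12.6 and 97.6 TPM in non-diabetic vehicle. Endothelial medians in Akita and non-diabetic vehicle were 43.96 and 57.2 TPM in WT, and 52.5 and 67.6 TPM in KO. Podocyte medians were 7.71 and 7.82 TPM in WT, and 7.56 and 12.2 TPM in KO. Principal cells had 17.7 and 19.6 TPM in WT, but 16.8 and 16.1 TPM in KO. Red blood cells had 3.13 and 3.72 TPM in WT, but 5.28 and 4.22 TPM in KO. These sums depend on the nuclear protein-coding share, so lower sums alone do not show less of a segment. Over the 48 libraries the late proximal list summed higher than the early list (medians 3092 and 1341 TPM). Whether it tracks the late segment in these tubules was not tested. The part of segment composition in the Car3 result was not tested.

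Car3 is also an abundant product of fat and muscle, so markers of these were examined. Of 12 adipocyte markers 2 passed the filter, Fabp4 and Lpl, whereas Adipoq was listed at 0 in 41 of 48 libraries (at most 0.637 TPM) and Lep in 47. Cfd and Plin1 were at 0 in 35 and 36 libraries. Mean Cfd in non-diabetic and Akita vehicle tubules was 0.875 and 0.0582 TPM in WT, and 1.10 and 0.166 TPM in KO. In the same order Plin1 had 0.484 and 0.0371 TPM in WT, and 0.596 and 0 TPM in KO. Fabp4 had 4.87 and 2.70 TPM in WT, and 5.51 and 1.89 TPM in KO. No marker on the list had a higher mean in Akita vehicle, in either genotype. The adipocyte sum was 5.03 to 22.6 TPM in Akita WT vehicle (median 8.59) and 10.8 to 36.9 TPM in non-diabetic WT vehicle (median 22.9). Much of this sum was Lpl, which averaged 7.74 TPM in Akita WT vehicle and 17.3 TPM in non-diabetic WT vehicle. Of 12 skeletal muscle markers 1 passed the filter, Tnnc2 was listed at 0 in all 48 libraries, and the sum was at most 3.66 TPM. The part of the adipocyte markers in the Car3 result was not tested.

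Car4, the lipid-anchored membrane enzyme (chromosome 11, 84957786 to 84966044, plus strand), was at lower values in Akita vehicle tubules, without passing the test. In WT it lay at 3.49 to 25.0 TPM in Akita with vehicle (median 8.94), against 14.6, 15.3, 15.8, 18.2 and 19.3 TPM in non-diabetic with vehicle. In KO it lay at 6.38 to 13.7 TPM in Akita with vehicle (median 11.3), against 9.83, 13.1, 15.3, 20.1 and 31.8 TPM in non-diabetic with vehicle. The groups overlapped in both genotypes, in WT through Akita sample 1 at 25.0 TPM. The log2 change averaged over genotypes was −0.70 ± 0.20 (adjusted p = 0.0745), and with the other 3 scalings it was −0.44 to −0.45 (adjusted p = 0.306 to 0.322). Without Akita WT vehicle sample 1 it was −0.84 (adjusted p = 0.0142), and without non-diabetic KO vehicle sample 1 it was −0.79 (adjusted p = 0.0331). In WT alone it was −0.80 ± 0.29 (adjusted p = 0.472, 5 of 6 Akita samples below the non-diabetic median), and in KO alone −0.61 ± 0.29 (adjusted p = 0.327, 6 of 6 below).

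The other members showed small differences with diabetes, none of which passed the test. Averaged over genotypes the log2 changes were −0.38 ± 0.19 for Car12 (adjusted p = 0.269), −0.29 ± 0.13 for Car5b (0.235), −0.13 ± 0.19 for Car2 (0.689), −0.10 ± 0.20 for Car14 (0.790) and 0.06 ± 0.25 for Car15 (0.907). The median of the 7 tested members was −0.29, beside −0.20 for all genes, of which 84.4% had a lower value. Car2 and Car14 had positive values with the other 3 scalings (0.13 to 0.14 and 0.16 to 0.17), on which 4 of the 7 were lower. Car2, the neighbour of Car3, had means of 33.0 ± 9.38 TPM in Akita WT vehicle and 32.8 ± 8.99 TPM in non-diabetic WT vehicle, a log2 change of −0.0048 ± 0.27 (95% interval −0.54 to 0.53).

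**Figure D2:**
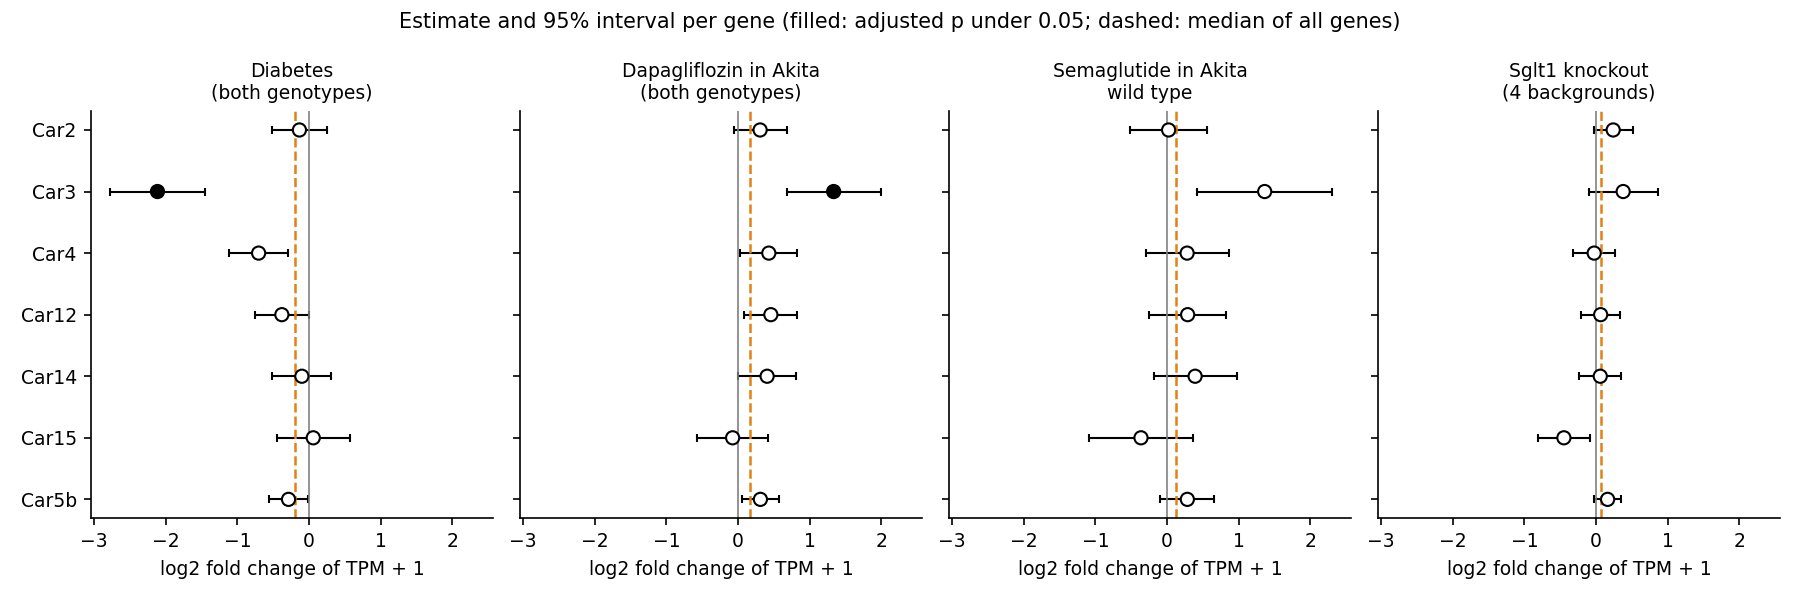
Log2 fold change of TPM + 1 of the 7 tested members, with 95% intervals from limma, for diabetes averaged over genotypes, dapagliflozin in Akita averaged over genotypes, semaglutide in Akita WT and the knockout averaged over 4 backgrounds. Filled points have an adjusted p under 0.05, the dashed line is the median of all 12742 genes, and Car3 alone is filled, at −2.12 for diabetes and 1.33 for dapagliflozin.

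Dapagliflozin was given to ask how blocking SGLT2 changed the tubules. In Akita mice Car3 was higher with the drug. Its mean was 4.53 ± 3.70 TPM in Akita WT with dapagliflozin (SD, n = 5) and 0.371 ± 0.324 TPM in Akita WT with vehicle (n = 6), and the samples did not overlap. Of all genes, 0.981% were higher without overlap in that comparison. In Akita KO the mean was 4.30 ± 3.75 TPM with dapagliflozin (n = 6) and 1.64 ± 1.37 TPM with vehicle (n = 6), with overlap. The log2 change was 1.83 ± 0.47 in WT (adjusted p = 0.220, 5 of 5 samples above the vehicle median) and 0.84 ± 0.45 in KO (adjusted p = 0.663, 5 of 6 above). In these single comparisons limma called 0 genes (0%), while 1289 genes in WT and 967 in KO had an unadjusted p under 0.05. The difference of the drug effect between WT and KO was not tested.

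Averaged over both Akita genotypes, Car3 rose by 1.33 ± 0.32 on the log2 scale (adjusted p = 0.0353). It was the only called member of the 7, where 0.816% of all genes were called, 102 higher and 2 lower, against 34 to 39 higher of 57 to 72 called with 3 other scalings. Relative to the all-gene median of 0.17, Car3 was at 1.17. This call was lost with no filter on low values (adjusted p = 0.0839) and in a fit of the groups compared only (0.0667). It also rested on single libraries. It was lost without Akita WT dapagliflozin sample 2 (adjusted p = 0.0659), 4 (0.0938) or 5 (0.0570), and without Akita KO dapagliflozin sample 5 (0.0880) or 6 (0.0738). Among vehicle samples it was lost without Akita WT sample 2 (0.0846) or 5 (0.0790) and without Akita KO sample 4 (0.0683), 5 (0.0828) or 6 (0.0752). Without the 4 libraries under 9000 genes, all of them Akita vehicle, the change was 1.13 (adjusted p = 0.632). The late proximal marker sum was 2419 to 4336 TPM in Akita WT with dapagliflozin (median 3287) and 1310 to 2582 TPM in Akita WT with vehicle, and 2270 to 4552 TPM in Akita KO with dapagliflozin (median 3383) and 1561 to 4041 TPM in Akita KO with vehicle. All 12 of those markers had the higher mean with dapagliflozin in both genotypes. Of all genes tested, 77.5% in Akita WT and 73.98% in Akita KO had a higher log2 value, so most genes went the same way. The part of those 12 markers in the Car3 result was not tested. The adipocyte sum was 10.8 to 33.4 TPM in Akita WT with dapagliflozin (median 26.8), against 5.03 to 22.6 TPM with vehicle (median 8.59). In WT the medians of the thick ascending limb, intercalated cell and distal lists were 61.8, 16.9 and 106 TPM with dapagliflozin, and 38.4, 8.34 and 80.6 TPM with vehicle. In KO they were 55.4, 9.74 and 73.0 TPM with dapagliflozin, and 47.8, 10.9 and 64.6 TPM with vehicle. Endothelial medians with dapagliflozin and vehicle were 62.8 and 43.96 TPM in WT, and 53.9 and 52.5 TPM in KO. Podocytes had 7.84 and 7.71 TPM in WT, but 7.31 and 7.56 TPM in KO. Principal cells had 22.5 and 17.7 TPM in WT, but 16.1 and 16.8 TPM in KO. Red blood cells had 3.49 and 3.13 TPM in WT, but 2.38 and 5.28 TPM in KO. The part of these lists was not tested either.

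In non-diabetic tubules Car3 did not pass the test. The log2 change with dapagliflozin was −0.51 ± 0.52 in non-diabetic WT (95% interval −1.56 to 0.54, adjusted p = 0.981) and −0.20 ± 0.47 in non-diabetic KO (−1.15 to 0.74, adjusted p = 1). Of all genes, 0% and 0.00785% were called in these. Car5b in non-diabetic WT was below the vehicle median in 4 of 4 dapagliflozin samples, at −0.31 ± 0.21 (adjusted p = 0.981). The drug effect in Akita less that in non-diabetic tubules was 2.34 ± 0.70 in WT (adjusted p = 0.272) and 1.04 ± 0.65 in KO (adjusted p = 0.876), and neither passed the test. In these interactions 0 genes were called, while 1423 and 634 had an unadjusted p under 0.05. Diabetic and non-diabetic tubules under dapagliflozin differed in Car3 by −0.05 ± 0.52 in WT (95% interval −1.10 to 1.00) and by −0.80 ± 0.45 in KO (−1.71 to 0.10). Akita WT with dapagliflozin against non-diabetic WT with vehicle gave −0.56 ± 0.49 (−1.55 to 0.43, adjusted p = 1), with 4 of 5 treated samples below the non-diabetic median. This interval does not show that the treated level equals that of non-diabetic vehicle. Comparisons that share the Akita vehicle samples are not independent of each other, and those samples were the low ones in both.

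The other members in Akita tubules were mostly at higher values with dapagliflozin, and none passed the test. Averaged over genotypes the log2 changes were 0.46 ± 0.18 for Car12 (adjusted p = 0.193), 0.43 ± 0.20 for Car4 (0.256), 0.41 ± 0.20 for Car14 (0.280), 0.31 ± 0.13 for Car5b (0.205), 0.31 ± 0.18 for Car2 (0.384) and −0.08 ± 0.25 for Car15 (0.899). The median of the 7 tested members was 0.41, beside 0.17 for all genes, of which 80.8% had a higher value. With the other 3 scalings 6 of the 7 were still above 0, with a median of 0.14 to 0.16. Car4 in Akita WT had 11.5, 16.5, 16.9, 18.2 and 19.4 TPM with dapagliflozin and 3.49 to 25.0 TPM with vehicle (median 8.94), a log2 change of 0.78 ± 0.29 (adjusted p = 0.354). In Akita KO it lay at 7.71 to 16.6 TPM with dapagliflozin (median 11.1) and 6.38 to 13.7 TPM with vehicle (median 11.3), a change of 0.08 ± 0.27 (adjusted p = 0.958).

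**Figure D3:**
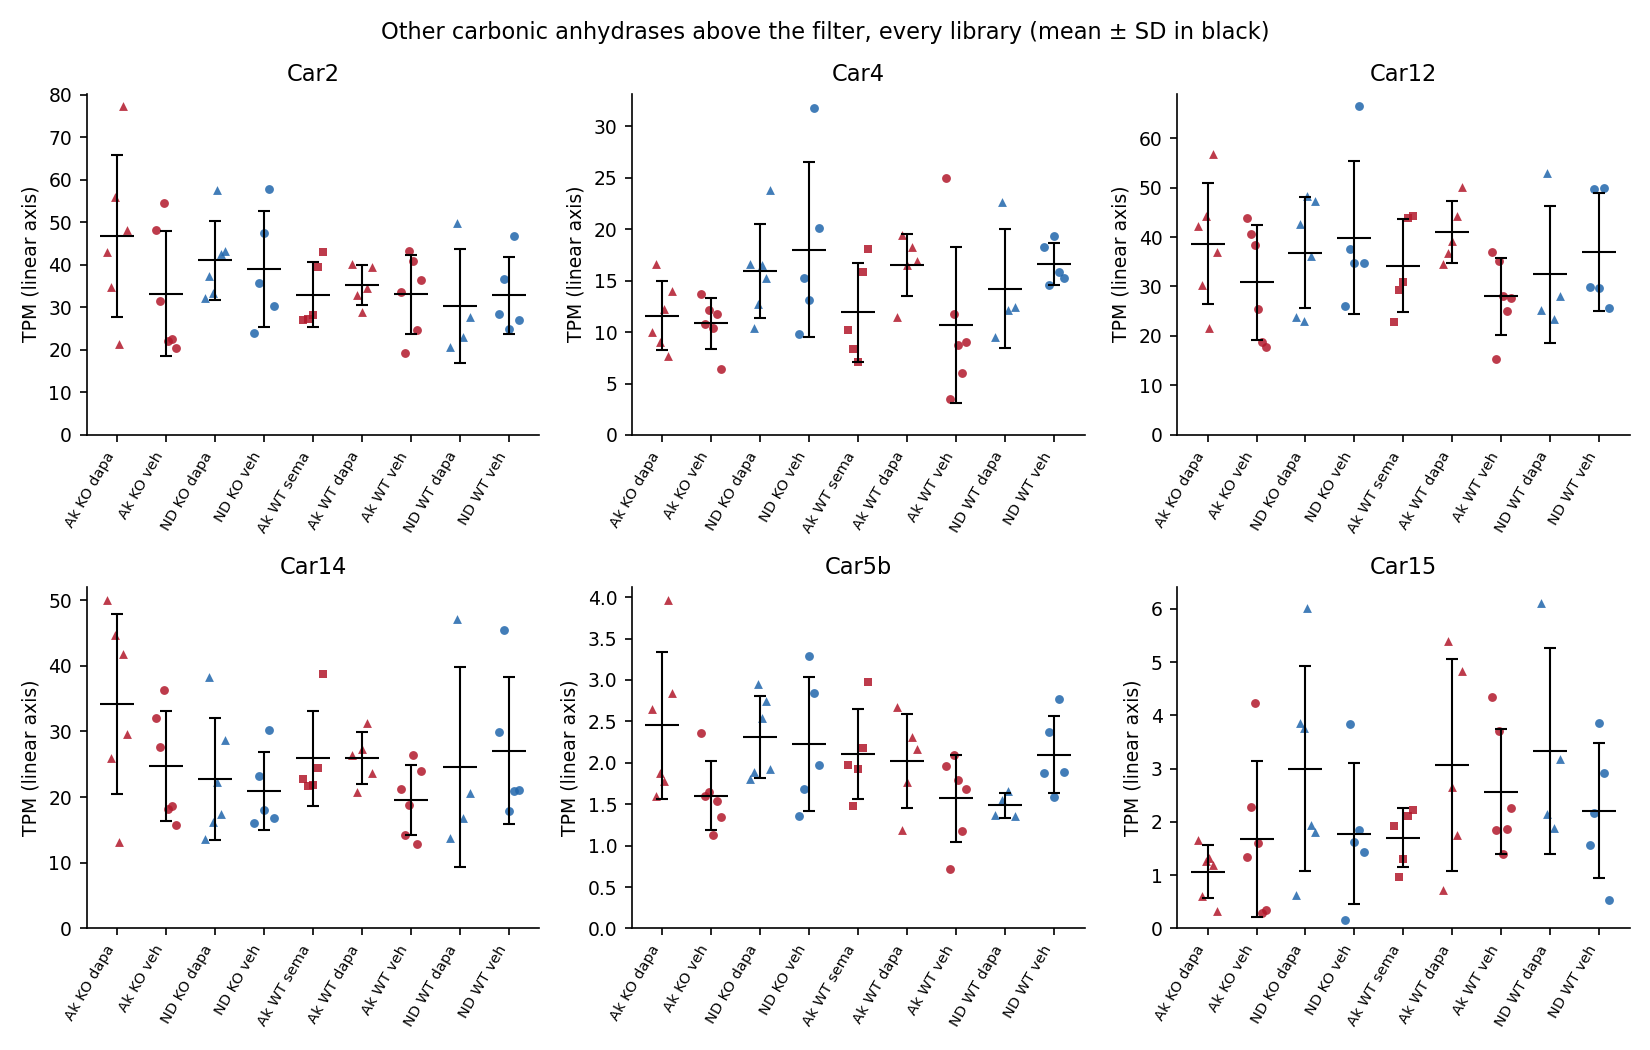
The 6 other tested members in TPM (linear axes, each starting at 0) in every library by group (Ak, Akita, in red, and ND, non-diabetic, in blue), with squares for semaglutide, triangles for dapagliflozin, circles for vehicle, and black lines for the mean ± SD. Every pair of groups overlaps for Car2 (19.2 to 77.2 TPM over all libraries), Car12 (15.3 to 66.4 TPM) and Car14. Some pairs do not overlap for Car4, Car5b and Car15. Car4 lies at 6.38 to 13.7 TPM in Akita KO vehicle and 14.6 to 19.3 TPM in non-diabetic WT vehicle. Car15 lies at 0.326 to 1.66 TPM in Akita KO dapagliflozin and 1.89 to 6.11 TPM in non-diabetic WT dapagliflozin.

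Semaglutide was given to Akita WT mice to compare GLP-1 receptor agonism with SGLT2 inhibition. Car3 averaged 3.29 ± 3.48 TPM with semaglutide (SD, n = 5) and 0.371 ± 0.324 TPM with vehicle (n = 6), and 1 semaglutide sample, at 0.555 TPM, lay within the vehicle range. The log2 change was 1.36 ± 0.47 (adjusted p = 0.809, 5 of 5 samples above the vehicle median). With semaglutide limma called 0 genes (0%), while 742 had an unadjusted p under 0.05. Semaglutide less dapagliflozin gave −0.47 ± 0.49 for Car3 (95% interval −1.46 to 0.52, adjusted p = 1), so a difference between the drugs was not detectable within that interval. Akita WT with semaglutide against non-diabetic WT with vehicle gave −1.03 ± 0.49 (−2.02 to −0.04, adjusted p = 1). The late proximal marker sum was 1811 to 3981 TPM with semaglutide (median 2964) and 1310 to 2582 TPM with vehicle, and its part was not tested. The log2 changes of the other tested members with semaglutide ran from −0.36 ± 0.36 for Car15 to 0.39 ± 0.29 for Car14. The semaglutide samples carried LCM numbers of 88 to 99 in their titles. Those of Akita WT vehicle were 1 to 82, of Akita WT dapagliflozin 4 to 78 and of non-diabetic WT vehicle 54 to 84. In each of these comparisons semaglutide and the range of LCM numbers therefore cannot be told apart.

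The Sglt1 knockout was compared with wild type to ask what loss of this transporter changed. No member was called in any of its 3 comparisons, in which 0.0157% to 0.0235% of all genes were called. Averaged over 4 backgrounds the log2 changes were 0.38 ± 0.24 for Car3, 0.24 ± 0.13 for Car2 and 0.16 ± 0.10 for Car5b (adjusted p = 0.921 each). In Akita mice alone Car3 was at 0.83 ± 0.45 (adjusted p = 1, 5 of 6 KO samples above the WT median), and in non-diabetic mice alone at 0.28 ± 0.49 (adjusted p = 0.983). Car12, Car14 and Car4 were at 0.06 ± 0.14, 0.06 ± 0.15 and −0.03 ± 0.15. Over the same 4 backgrounds Car15 was at −0.45 ± 0.18 (95% interval −0.82 to −0.08, adjusted p = 0.921). In all, a member was called in 3 of the 20 comparisons, each time Car3, and none was called in the other 17.

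Car15 lies on chromosome 16 (17835276 to 17838364, minus strand), was low, and its counting is uncertain. It lay at 0.326 to 1.66 TPM in Akita KO dapagliflozin (median 1.23), the lowest group, and at 1.89, 2.15, 3.17 and 6.11 TPM in non-diabetic WT dapagliflozin, the highest. Of its annotated 31-base words, 61.3% also occur in the overlapping gene Gm20518, which was at 0 to 0.875 TPM, so reads of the pair may be split between them. Under dapagliflozin in KO tubules the log2 change of Car15 with diabetes was −0.84 ± 0.34 (adjusted p = 1, 6 of 6 Akita samples below the non-diabetic median).

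Car5b, the mitochondrial form (chromosome X, 163976822 to 164027997, minus strand), had group means between 1.48 ± 0.146 TPM in non-diabetic WT dapagliflozin (n = 4) and 2.45 ± 0.890 TPM in Akita KO dapagliflozin (n = 6). Of its words, 7.66% also occur in other genes. Car8 (chromosome 4, 8143362 to 8239041, minus strand) was at 0 in 6 of 48 libraries and Car13 in 14. Differences of Car8 and Car13 between groups were not tested.

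The transmembrane enzymes Car12 (chromosome 9, 66713686 to 66766845, plus strand) and Car14 (chromosome 3, 95897768 to 95904691, minus strand) varied together, with a Pearson r of 0.718 over the 48 libraries on log2(TPM + 1). Promoter sequences were found for 5 of the 9 members (RefSeq, GRCm38.p6), each from 250 bases before the start to 50 after it. Those of Car12 (chr9:66713436-66713735, plus strand) and Car14 (chr3:95904636-95904935, minus strand) are shown because these genes moved together, 5′ to 3′, with matches to the motifs searched in capitals.
Car12: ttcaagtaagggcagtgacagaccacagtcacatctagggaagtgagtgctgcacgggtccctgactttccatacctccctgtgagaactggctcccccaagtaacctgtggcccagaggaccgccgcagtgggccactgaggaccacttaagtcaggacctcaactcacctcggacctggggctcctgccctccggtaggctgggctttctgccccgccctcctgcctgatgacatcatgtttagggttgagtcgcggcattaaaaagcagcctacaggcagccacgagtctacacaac
Car14: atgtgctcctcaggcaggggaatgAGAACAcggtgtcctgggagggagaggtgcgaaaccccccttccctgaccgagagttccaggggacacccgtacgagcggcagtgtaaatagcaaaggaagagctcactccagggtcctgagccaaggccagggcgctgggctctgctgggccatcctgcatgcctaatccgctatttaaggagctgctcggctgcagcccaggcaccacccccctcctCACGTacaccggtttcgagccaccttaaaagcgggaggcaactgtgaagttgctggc
The letters searched on both strands were GTTAAT (HNF1 core), CAAAGTCCA (HNF4 core), ACGTG (hypoxia response core), AGAACA (steroid receptor core), TATAAA (core promoter element) and CCAAT (NF-Y site). The window of Car12 held none of them. The window of Car14 held 1 ACGTG, here read as its reverse complement CACGT, and 1 AGAACA. Of 32851 promoters of the same length, 7.1% held GTTAAT, 0.475% CAAAGTCCA, 19.6% ACGTG, 13.6% TATAAA and 37.4% CCAAT, and 6233 held AGAACA. Car4 held 1 ACGTG and 1 TATAAA, and Car5b and Car15 each held 1 CCAAT. These matches describe letters and not binding. Car14 overlaps Aph1a on the other strand over 16.4% of its words, and Aph1a was at 2.36 to 6.41 TPM. Whether counting used strand is not given in the sources used here.

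By group, Car12 had its lowest mean, 28.0 ± 7.76 TPM, in Akita WT vehicle (n = 6) and its highest, 41.0 ± 6.25 TPM, in Akita WT dapagliflozin (n = 5). Akita WT with dapagliflozin gave 34.6, 36.8, 39.3, 44.3 and 50.1 TPM, against 15.3 to 36.9 TPM with vehicle (median 27.9). The groups overlapped, and the log2 change was 0.57 ± 0.27 (adjusted p = 0.466, 5 of 5 samples above the vehicle median). Car14 averaged 25.9 ± 3.96 TPM in Akita WT dapagliflozin and 19.6 ± 5.33 TPM in Akita WT vehicle, and 34.2 ± 13.8 TPM in Akita KO dapagliflozin and 24.7 ± 8.42 TPM in Akita KO vehicle. Its log2 changes were 0.41 ± 0.29 in WT (adjusted p = 0.627) and 0.40 ± 0.28 in KO (0.736). Car2 averaged 46.7 ± 19.04 TPM in Akita KO dapagliflozin and 33.2 ± 14.7 TPM in Akita KO vehicle (n = 6 each), a log2 change of 0.48 ± 0.25 (adjusted p = 0.660).

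Among the genes tested, the one most like Car12 in pattern was Slc4a4, which encodes the basolateral bicarbonate cotransporter NBCe1. Their Pearson r was 0.907 over the 48 libraries, ahead of Fam210a (0.901) and Eif4ebp2 (0.898), out of 10121 annotated protein-coding genes compared. Slc4a4 was abundant, at 106 to 317 TPM. By the same measure Car2 was most like Cldn2 (0.878), a paracellular channel of the proximal tubule, then Gpx3 (0.872) and Sh3d19 (0.847). Car14 was most like Alpl (0.806), Idh2 (0.786) and Sord (0.775), and Car4 like Hsd17b11 (0.809), Me1 (0.777) and Mfap3l (0.759). Car5b was most like Ssr3 (0.814), Kcnj16 (0.774) and Rtn3 (0.773). Car3 stood further from any gene, with Tet2 (0.716), Acy3 (0.712) and Slco3a1 (0.702) nearest, and so did Car15, with Il4ra (0.669), Adam15 (0.625) and Klk1 (0.617). All points share their library's scaling, so an r across libraries includes whatever moves many genes at once.

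**Figure D4:**
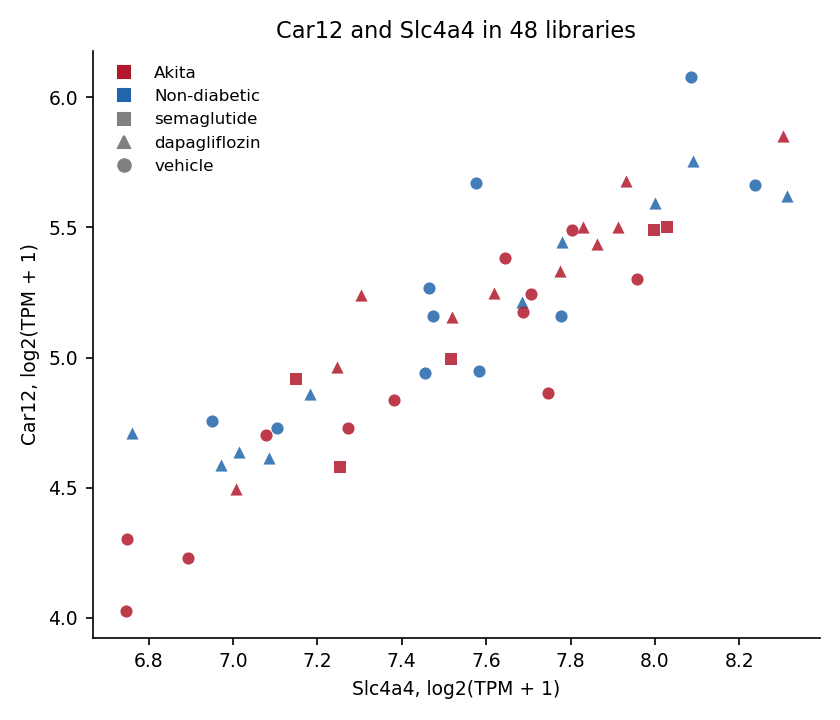
Car12 against Slc4a4, both as log2(TPM + 1), 1 point per library (n = 48), Akita in red and non-diabetic in blue, with squares for semaglutide, triangles for dapagliflozin and circles for vehicle. The points rise together (Pearson r = 0.907).

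Among the members themselves, Car2 and Car12 were the most alike (r = 0.823), then Car2 and Car5b (0.723) and Car12 and Car14 (0.718). Car3 had an r between 0.0318 and 0.491 with the other 6 tested members.

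Other genes of bicarbonate reclamation and ammonia formation were followed as a list of 27, of which 26 passed the filter. None was called with diabetes averaged over genotypes, where 25 of 26 had a lower value (median −0.27, beside −0.20 for all genes). With the other 3 scalings 13 or 14 of the 26 were lower. Examples are Slc9a3, the proton exchanger NHE3, at −0.35 ± 0.16 (adjusted p = 0.241), and Pck1, which encodes the gluconeogenic enzyme PEPCK, at −0.61 ± 0.23 (adjusted p = 0.164). With dapagliflozin averaged over Akita genotypes 24 of 26 had a higher value (median 0.28, beside 0.17 for all genes) and 2 were called, both higher. Slc38a3, the basolateral glutamine carrier SNAT3, rose by 0.99 ± 0.24 (adjusted p = 0.0309), and Pck1 rose by 0.89 ± 0.22 (adjusted p = 0.0410). Pck1 averaged 565 ± 236 TPM in Akita KO dapagliflozin and 285 ± 107 TPM in Akita KO vehicle, and 470 ± 119 TPM in Akita WT dapagliflozin and 274 ± 94.1 TPM in Akita WT vehicle. Slc38a3 averaged 5.62 ± 3.35 TPM in Akita KO dapagliflozin and 1.81 ± 0.711 TPM in Akita KO vehicle, and 5.23 ± 2.40 TPM in Akita WT dapagliflozin and 2.84 ± 2.75 TPM in Akita WT vehicle. None of the 26 was called with any of the other 3 scalings, on which 16 to 18 were higher.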

How the data were processed

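The authors deposited TPM per gene for 48 of 54 labelled samples. Total RNA (0.5 ng, DV200 above 30%) was made into stranded libraries, per the labels' protocols. Salmon, MultiQC 1.8 and GRCm38 are named in the submitters' processing notes, without a Salmon version or an annotation release. The name of the deposited table says that outliers were removed and states no rule. TPM keeps no depth, so depth and counting error are unknown.

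Columns were matched to samples by the number in the sample title, and groups come from the labels. A 9-group model of log2(TPM + 1) was fitted with limma 3.58.1 in R 4.3.3 (39 residual degrees of freedom, trended and robust variances, statmod 1.5.0). Genes entered with 1 TPM or more in 5 or more samples. The p-values are for both directions, with Benjamini-Hochberg adjustment in each of 20 comparisons. The fit was tested on simulated data. Alternatives were a pseudocount of 0.1, no filter, a filter of 24 samples, 3 other scalings (median of ratios, nuclear protein-coding sum, quantile), the LCM number as a covariate, the groups compared only, leaving out libraries under 9000 genes, and leaving out each library. Python 3.11.15 read gene positions and transcripts from the GENCODE annotation of GRCm38, and promoters from RefSeq (GRCm38.p6).

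All 9 members were described. Beside them the text names called genes of the bicarbonate list with 2 uncalled examples chosen after their values were seen, markers, and the 3 protein-coding genes with the highest r with each tested member. The members and lists were chosen with earlier results of these data known.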

Additional observations from a re-analysis of the deposited data

Results flagged for a closer look

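A sample far from the rest of its group was found 4 times among 81 sets of values of 1 member in 1 group, judged by Dixon's critical value for the group size, and chance gives about 1 in 20. Car8 was at 0.491 TPM in Akita WT vehicle sample 1, with 0.196 TPM next in the group. Car12 was at 53.0 TPM in non-diabetic WT dapagliflozin sample 3, with 28.0 TPM next, and at 66.4 TPM in non-diabetic KO vehicle sample 5, with 37.5 TPM next. Car14 was at 38.7 TPM in Akita WT semaglutide sample 6, with 24.4 TPM next. Car3 had no such sample in any group.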

How the results depend on the processing

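Each comparison was recomputed under 9 alternatives and without each of its libraries, for the count of members called and for each member whose change was at least 1 SE. No such change turned its sign. With diabetes in WT the count of members called, 1, became 0 with no filter (Car3 adjusted p = 0.0787), with the LCM number as a covariate (0.136) and without libraries under 9000 genes (0.394). With dapagliflozin averaged over Akita genotypes it became 0 with no filter (adjusted p = 0.0839), in the groups compared only (0.0667) and without libraries under 9000 genes (0.632). Without single libraries it was 0 to 1 with diabetes in WT, 1 to 2 with diabetes averaged and 0 to 1 with dapagliflozin averaged. The causes were not tested. Car3 with diabetes averaged was called in all 9 alternatives (log2 −3.27 with a pseudocount of 0.1 to −1.91, adjusted p = 0.000196 to 0.0338). Car3 with dapagliflozin averaged ran from 1.13 to 2.27, the highest with that pseudocount. Car4 with diabetes averaged ran from −0.76 to −0.43 under alternatives (adjusted p = 0.0615 to 0.964).

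Genes called overall were 3 with diabetes in WT (0 to 12 under alternatives), 71 with diabetes averaged (4 to 91, and 11 to 313 without 1 library) and 104 with dapagliflozin averaged (0 to 150, and 9 to 378 without 1 library). No paired analysis was possible because the labels carry no replicate numbers that groups share. Depth is unknown, and Car8 and Car13, under 1 TPM in every library, were not tested.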

Other observations

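Of the 7 other carbonic anhydrase genes in the table, Car1 and Car10 were listed at 0 in all 48 libraries. Car1, an enzyme of red blood cells, lies between Car13 and Car3 on chromosome 3. Car5a, the mitochondrial form best known from liver, was at most 0.655 TPM, Car6 at most 0.466 TPM and Car7 at most 1.24 TPM. Car9, a membrane enzyme known as a target of hypoxia signalling, had a median of 0.807 TPM with a highest value of 7.77 TPM, and reached 1 TPM in 20 of 48 libraries. Car11, a related protein without catalytic activity, had a median of 0.543 TPM and a highest value of 2.71 TPM.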
